A study of Mus musculus with 12 samples.

Results

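The comparison described here sets adult satellite cells against fetal satellite cells of the mouse. It uses the 3 adult and 3 fetal arrays, 6 of the 12 microarrays of the series, and 19938 genes measured on each. The members were chosen by their labelled stage alone. All cells came from heterozygous Pax7-ZsGreen mice of the strain C57BL/6, in which a green fluorescent protein reports the satellite cell factor Pax7, and were sorted live by their fluorescence with gates set for each age. The fetal cells were taken at E17.5 from whole forelimb and hindlimb, pooled from 4 mice. The adult cells were taken at 2 to 3 months from hindlimb muscles only, pooled from 8 mice, so that stage and limb cannot be told apart. The series also holds adolescent (postnatal day 21) and aged (over 1 year) arrays, which entered the fit for its estimate of spread. The labels do not tell whether each replicate was a pool of its own, and the p-values therefore cover the spread among these arrays alone, which may be technical.

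Satellite cells are the stem cells of skeletal muscle and lie between the muscle fibre and its basement membrane. In the fetus they divide and feed the growing fibres with new nuclei. In the adult most of them rest outside the cell cycle until injury, while they keep expressing Pax7 and are held in that state by Notch signalling and by contact with the fibre and its matrix.

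Values are on the log2 scale as deposited, so a difference of 1 is a 2-fold change. Differences are adult minus fetal and are given with the standard error (SE) of the limma fit (n = 3 arrays per stage throughout). The threshold was 0.05 on p-values adjusted over all genes (Benjamini-Hochberg), and rose or fell is written only of genes that passed it. Of 19938 genes, 3806 rose (19.1%) and 4659 fell (23.4%), 42.5% in all. At least 2-fold changes that passed numbered 714 rises (3.58%) and 1353 falls (6.79%), 10.4% of genes in all. Rises were 45.0% of all calls, but 32.8% when each array was centred on its median (2542 rises and 5201 falls). The median difference over all genes was 0.09, against which the medians of gene lists below can be read. Counts of rises and falls in the lists can likewise be read against the 19.1% and 23.4% of all genes. The 3 adult and the 3 fetal values did not overlap for 47.9% of genes.

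The adult arrays were not alike. Adult replicates 2 and 3 correlated at r = 0.996 across genes, and adult replicate 1 correlated with them at 0.973 and 0.972, below its correlation with the adolescent arrays (0.984 to 0.985). Fetal pairs correlated at 0.992 to 0.997, and adult with fetal arrays at 0.905 to 0.948. Without adult replicate 1, 12968 genes passed, and 8282 of the 8465 calls remained with their direction. The 12968 were 7000 rises (35.1% of all genes) and 5968 falls (29.9%). List counts given below without that array can be read against these shares. When the mean of replicates 2 and 3 stood as 1 sample in every stage, an alternative chosen after their closeness was seen, 3532 genes passed (1297 rises and 2235 falls), of which 1858 were at least 2-fold. Adult replicates 2 and 3 also had a raised background. It was read from 1207 probe sets of 1192 smell and pheromone receptor genes, assumed here to be mostly silent in muscle cells. Their mean was 4.46 and 4.50 on adult replicates 2 and 3, against 3.83 on adult replicate 1 and 3.79 to 3.87 on the fetal arrays. Of these receptor genes 357 (29.9%) were called higher in adult cells, with a median difference of 0.43, but only 10 of them by at least 2-fold. On the fetal arrays and adult replicate 1 this background was alike, and it was raised on 2 of the 3 adult arrays. Its part in small rises of dim genes was not tested. A gene whose mean in a stage lay under the 95th percentile of the receptor genes (5.39 fetal, 5.88 adult) has only a bound there, and its fold is given as "at least". Such a bound is one of stage means, and a single array can show a smaller change. The adult limit is the mean of 5.37, 6.12 and 6.13 on adult replicates 1, 2 and 3. Falls given as measured can therefore rest on values under the limits of adult replicates 2 and 3. Chrng, Cep41 and Kdm5d are such cases.

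**Figure D1:**
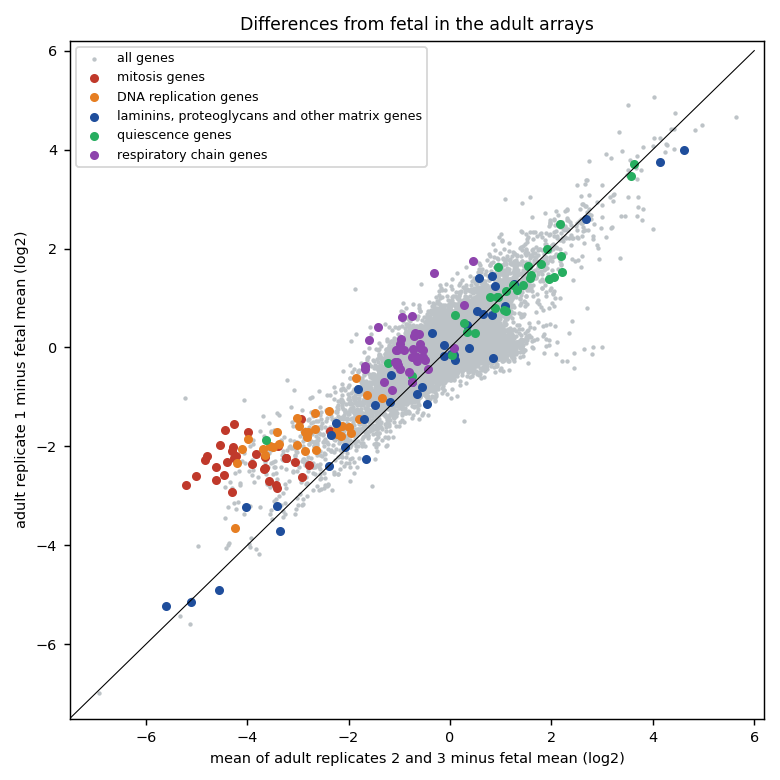
Difference from the fetal mean (log2) of each gene on adult replicate 1 (vertical axis) and on the mean of adult replicates 2 and 3 (horizontal axis). Grey points are all 19938 genes, coloured points the members of 5 gene lists, and the line marks equal differences. Mitosis genes (red) and DNA replication genes (orange) lie above the line, with a smaller fall on adult replicate 1, while most quiescence genes (green) and the largest matrix changes (blue) lie near it.

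Cell division genes were the most uniform group. Of 33 mitosis genes 33 fell and 0 rose, each by at least 2-fold, with a median difference of -3.36. Of 31 DNA replication genes 31 fell, again each by at least 2-fold, with a median of -2.47. Among all genes 23.4% fell. In bulk samples fewer dividing cells and less RNA per cell cannot be told apart.

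Promoters of 4 of these genes are shown because cell cycle genes carry well known promoter motifs. Genes of mitosis commonly carry the cell cycle gene homology region (CHR, TTTGAA), which binds the MuvB complexes, and genes of DNA replication commonly carry E2F sites (searched here as GCGGGAA or GGCGGGA or else TTTGGCG, which can overlap each other). Both were searched on both strands of RefSeq promoters of 300 bases, 250 before and 50 after the annotated start, in GRCm38.p6. Of the genes tested, 15614 were matched to 19177 promoters. The sequences of Bub1b (chr2:118597961-118598260, plus strand), Aurka (chr2:172370521-172370820, minus strand), Chaf1a (chr17:56040166-56040465, plus strand) and Ccne1 (chr7:38107441-38107740, minus strand) follow, 5′ to 3′ along the gene, with CHR or E2F matches in capitals.
Bub1b: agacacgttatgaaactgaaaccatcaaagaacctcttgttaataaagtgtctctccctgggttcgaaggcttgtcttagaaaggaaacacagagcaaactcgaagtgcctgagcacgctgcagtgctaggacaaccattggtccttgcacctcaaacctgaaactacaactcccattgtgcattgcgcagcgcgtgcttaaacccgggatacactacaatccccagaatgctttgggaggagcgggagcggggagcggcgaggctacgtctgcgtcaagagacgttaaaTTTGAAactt
Aurka: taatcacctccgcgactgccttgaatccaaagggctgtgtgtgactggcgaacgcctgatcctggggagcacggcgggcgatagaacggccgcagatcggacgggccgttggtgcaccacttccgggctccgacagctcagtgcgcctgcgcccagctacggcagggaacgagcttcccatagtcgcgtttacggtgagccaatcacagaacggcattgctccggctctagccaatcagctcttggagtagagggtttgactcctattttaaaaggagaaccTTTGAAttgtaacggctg
Chaf1a: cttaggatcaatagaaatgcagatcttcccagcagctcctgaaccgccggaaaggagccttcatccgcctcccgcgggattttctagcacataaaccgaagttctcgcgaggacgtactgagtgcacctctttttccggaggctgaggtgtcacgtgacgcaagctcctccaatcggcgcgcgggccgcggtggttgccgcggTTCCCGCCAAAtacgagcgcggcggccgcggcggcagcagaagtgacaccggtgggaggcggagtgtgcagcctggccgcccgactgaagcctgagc
Ccne1: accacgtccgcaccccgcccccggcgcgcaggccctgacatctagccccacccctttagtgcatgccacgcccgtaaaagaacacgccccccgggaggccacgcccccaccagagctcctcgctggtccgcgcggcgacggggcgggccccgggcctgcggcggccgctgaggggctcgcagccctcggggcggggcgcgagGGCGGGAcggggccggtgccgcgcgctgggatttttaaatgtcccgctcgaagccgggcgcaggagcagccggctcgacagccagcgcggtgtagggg
The CHR match of Bub1b begins 41 bases after the start and that of Aurka 33 bases after it. In Chaf1a the 3 E2F words overlap in 1 run on the opposite strand, which begins 47 bases before the start, and the match of Ccne1 begins 48 bases before it. The promoters of the mitosis genes Kif2c and Melk were taken along with these, but their sequences are not shown. Kif2c held a CHR match on the opposite strand, which begins 103 bases before the start. Melk held no CHR match but an E2F match, which begins 13 bases after the start.

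A CHR match was present in 23 of 29 promoters of the mitosis genes (79.3%), in 3 of 31 of the replication genes (9.68%) and in 14.8% of all promoters. An E2F match was present in 18 of 31 replication promoters (58.1%), in 10 of 29 mitosis promoters (34.5%) and in 20.0% of all promoters. Of the 1367 promoters of genes that fell at least 2-fold, 32.2% held an E2F match, against 15.9% of the 684 promoters of genes that rose at least 2-fold. A match is a description of letters in this window, not of binding.

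Bub1b, a kinase of the spindle checkpoint, read 9.36, 9.79 and 9.85 on the fetal arrays and 6.83, 6.16 and 6.33 on the adult arrays. The stages did not overlap, adult replicate 1 was the highest adult array, and the difference was -3.23 ± 0.17 (adjusted p = 2.05e-08). Aurka, the kinase of the spindle poles, read 8.71, 9.31 and 9.31 against 6.73, 6.37 and 6.30, and its difference was -2.64 ± 0.18 (adjusted p = 2.38e-07). Mki67, the proliferation antigen, read 10.82, 10.99 and 11.03 in fetal and 9.28, 6.58 and 6.44 in adult cells. Its adult arrays spanned more than 2 units, and adult replicate 1 lay nearer to the fetal arrays than to the other adult arrays. The difference of Mki67 was -3.51 ± 0.57 (adjusted p = 3.27e-04), and -1.67 on adult replicate 1 alone. Top2a, which untangles replicated DNA, likewise had its highest adult value on replicate 1, with 10.42, 10.73 and 10.75 against 8.04, 5.82 and 5.42 and a difference of -4.21 ± 0.50. Bub1, another checkpoint kinase, was at least 16.7-fold lower by stage means, with adult values of 7.15, 4.72 and 4.72. Adult replicate 1 lay above its own receptor 95th percentile (5.37), and the difference on that array alone was -2.78. Kif2c, Cenpe, Melk and Cdc25c act on microtubules, kinetochores and entry into mitosis. By stage means they were at least 8.88-fold, at least 9.13-fold, at least 8.19-fold and at least 4.23-fold lower. Cenpe read 6.14 on adult replicate 1, and its difference on that array alone was smaller than the bound, at -2.93.

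Ccne1, the cyclin that drives entry into S phase, read 10.88, 10.95 and 11.00 against 7.30, 6.74 and 6.66, a difference of -4.04 ± 0.26 (adjusted p = 1.17e-07). All 3 adult arrays were more than 3 units below all fetal arrays. Cdc6, which loads the replicative helicase, was at least 5.02-fold lower by stage means. On adult replicate 1 alone Cdc6 read 6.12, and its difference was smaller than the bound, at -2.08. Chaf1a, a chaperone that places histones on new DNA, fell by 2.03 ± 0.15. Rfc3, Pola1 and Fen1, parts of the replication machinery, fell by 2.44 ± 0.23, 1.95 ± 0.18 and 1.87 ± 0.18. On adult replicate 1 alone the median of the mitosis list was -2.26 and that of the replication list -1.72. Without that array they were -3.99 and -2.81. The cells of the adolescent arrays, compared with the same fetal arrays, had medians of -0.66 and -0.70.

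Of 21 D cyclins, cyclin-dependent kinase (CDK) partners, inhibitors and pocket proteins, 3 rose and 14 fell (median -0.85). Ccnd2, a D cyclin, read 9.51, 9.47 and 9.40 in fetal and 7.04, 6.84 and 6.90 in adult cells and fell by 2.53 ± 0.14, while its relative Ccnd1 was higher in adult cells, at 10.58, 9.91 and 9.96 against 9.56, 9.45 and 9.38 (0.69 ± 0.17, adjusted p = 0.00618). The rise of Ccnd1 lost its call when replicates 2 and 3 were averaged. The kinases Cdk2 and Cdk6 fell by 1.52 ± 0.19 and 1.93 ± 0.14, and E2f7, a repressor of the E2F family, by 2.79 ± 0.11. The inhibitors moved in opposite directions. Cdkn1c (p57) read 11.76, 12.04 and 12.09 in fetal cells and 10.09, 8.23 and 8.44 in adult cells, with adult replicate 1 highest among the adult arrays, and fell by 3.04 ± 0.40 (adjusted p = 6.26e-05). Cdkn1b (p27) was higher by 0.34 ± 0.10 (adjusted p = 0.0163), a call that was lost when replicates 2 and 3 were averaged and without fetal replicate 2. Cdkn2a, the locus of p16, read 5.64, 5.78 and 5.52 against 5.86, 6.05 and 5.80 and did not pass (adjusted p = 0.105). Trp53inp1, a target of p53, rose by 1.37 ± 0.14.

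The largest fall of a single gene was that of Nrk, a kinase gene of fetal tissues, which read 11.71, 11.43 and 11.66 on the fetal arrays and 4.62, 4.67 and 4.70 on the adult arrays, so that it was at least 52.9-fold lower (measured difference -6.94 ± 0.12, adjusted p = 2.00e-12). The matrix proteoglycan Vcan was at least 41.7-fold lower, with 11.31, 11.21 and 11.24 against 6.02, 5.60 and 5.70, and Tnc (tenascin C) fell by 5.12 ± 0.31, with 11.23, 11.13 and 11.21 against 6.05, 6.13 and 6.03. Adult values of Tnc, Nrk and Gpc3 lay close together on all 3 adult arrays, unlike those of the division genes. Gpc3, a cell surface proteoglycan whose loss causes fetal overgrowth, fell by 5.08 ± 0.14. Fbn2, the fibrillin of developing tissue, was at least 18-fold lower. The remaining largest falls were those of Mstn, Cpa3, Bub1, Nnat, Agtr2, Top2a, Peg10 and Ccne1, described with their groups, and of Cep41 (-4.22 ± 0.12), a gene of the cilium, and Stil, of the centriole, which was at least 8.21-fold lower.

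The largest rise was that of Retnla, a secreted protein known from macrophages and adipose tissue, which read 3.45, 3.80 and 3.54 in fetal cells, at receptor background, and 8.25, 9.22 and 9.25 in adult cells. It was at least 11.4-fold higher (measured difference 5.31 ± 0.38). Clmn, which codes for calmin, read 5.95, 5.97 and 5.86 against 10.32, 10.79 and 10.73 and rose by 4.68 ± 0.15. Gpx3, a secreted glutathione peroxidase, rose by 4.09 ± 0.09, from 8.03, 8.10 and 7.99 to 12.28, 12.06 and 12.06, and Ephx1, an epoxide hydrolase, by 4.15 ± 0.11. Each of these genes had adult arrays well clear of the fetal arrays. Hspa1a, an inducible heat shock chaperone, rose by 4.27 ± 0.28, and Blnk, an adaptor best known from B cells, was at least 13.6-fold higher. Lncpint, a long noncoding RNA, was at least 14.2-fold higher. Filip1l and Medag rose by 4.22 ± 0.18 and 4.17 ± 0.15. The second probe set of Filip1l differed by 1.76, so the size of that rise depends on the probe set.

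**Figure D2:**
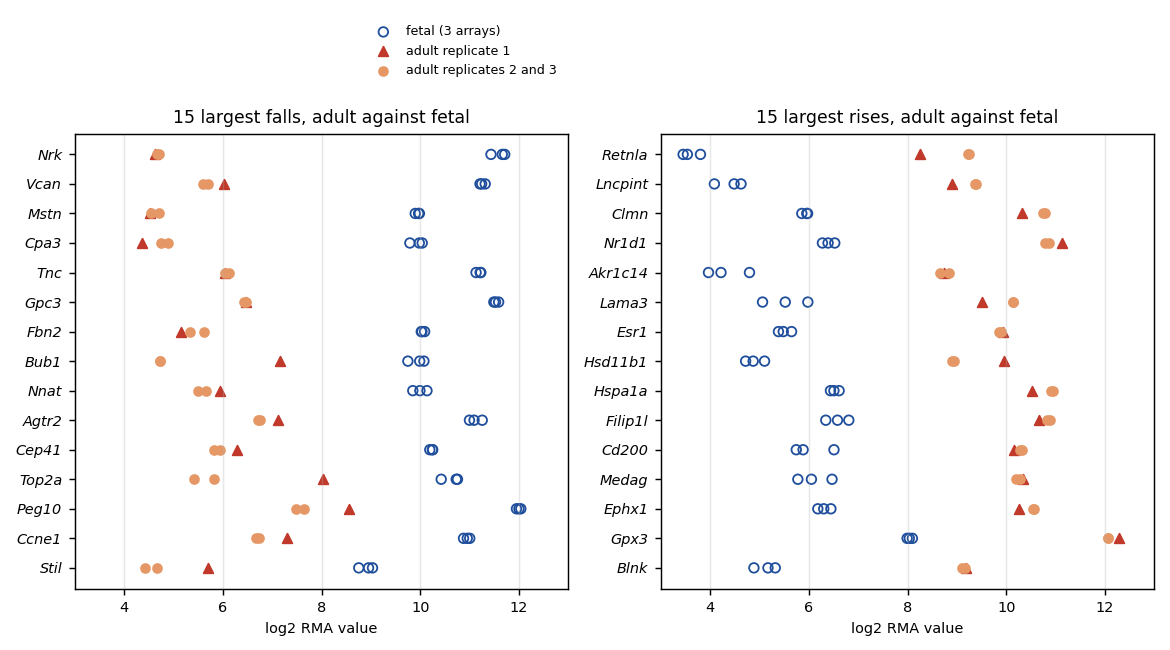
Log2 RMA values (horizontal axis) of the 15 genes with the largest falls (left) and the 15 with the largest rises (right) among genes that passed, did not overlap between stages and had a mean of 6 or more in whichever stage was higher. Open circles are the 3 fetal arrays, triangles adult replicate 1 and filled circles adult replicates 2 and 3. For Bub1 and Top2a the triangle is the adult value closest to the fetal circles, at 7.15 and 8.04, while for Nrk the 3 adult values lie between 4.62 and 4.70.

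Imprinted genes, expressed from a single parental copy and many of them tied to fetal growth, fell as a rule. Of 22 measured, 16 fell and 0 rose (median -0.85). Igf2, the fetal insulin-like growth factor, read 12.01, 12.05 and 12.04 in fetal and 10.23, 9.91 and 9.85 in adult cells and fell by 2.04 ± 0.11 (adjusted p = 2.98e-08). Dlk1, a membrane protein of the delta family, read 12.10, 11.96 and 11.98 against 8.75, 7.72 and 7.89 and fell by 3.90 ± 0.21. Peg10, a gene derived from a retrotransposon, fell by 4.10 ± 0.24, and Slc38a4, an amino acid transporter, by 3.88 ± 0.23. Among the adult arrays, replicate 1 was the highest for Igf2, Dlk1, Peg10 and Slc38a4. Nnat (neuronatin) and Asb4, an ubiquitin ligase adaptor, were at least 17.3-fold and at least 9.67-fold lower. Igf2r, the receptor that clears Igf2, fell by 0.83 ± 0.10, with 10.74, 10.75 and 10.73 against 9.90, 9.91 and 9.91. Meg3, a noncoding RNA, and Peg3, a zinc finger gene, did not pass, with differences of 0.00 and -0.23.

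Of 19 genes of the insulin-like growth factor axis, 2 rose and 9 fell. The binding protein Igfbp3 read 10.69, 10.44 and 10.52 against 8.14, 7.02 and 7.13 and fell by 3.12 ± 0.23, and Igfbp2 was at least 3.32-fold lower. Irs2, an adaptor of the insulin receptor, rose by 0.96 ± 0.13. Of 18 genes regulated by let-7 microRNAs or expressed mainly in fetal tissue and tumours, 3 rose (5 without adult replicate 1) and 7 fell. The RNA-binding proteins Igf2bp1 and Igf2bp3 were at least 4.76-fold and at least 7.49-fold lower. Igf2bp3 read 8.94, 8.61 and 8.79 in fetal and 4.75, 4.82 and 4.86 in adult cells. Hmga2, a chromatin protein of growing tissue, fell by 1.11 ± 0.18, and Lin28b, which blocks let-7 processing, stood within receptor background in both stages (3.81, 4.14 and 3.92 and 3.79, 4.23 and 4.29). Myc rose by 1.06 ± 0.13, opposite to the division genes, with 9.69, 9.42 and 9.37 against 10.84, 10.39 and 10.43.

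The genes that define satellite cells were present in both stages. Pax7 itself, the gene behind the sort, read 10.36, 10.49 and 10.51 in fetal and 11.45, 11.66 and 11.69 in adult cells, a rise of 1.14 ± 0.10 (adjusted p = 2.58e-06). The gates were set separately for each age. Myf5 and Myod1, the factors that commit cells to muscle, rose by 1.21 ± 0.12 and 0.69 ± 0.11, with adult Myod1 values of 10.55, 10.66 and 10.70. Myog, which starts differentiation, read 9.38, 9.34 and 9.36 in fetal cells and 9.50, 7.32 and 7.49 in adult cells. Its fall of -1.26 ± 0.44 (adjusted p = 0.0378) was carried by adult replicates 2 and 3. On adult replicate 1 alone the difference was 0.14. The call was lost when replicates 2 and 3 were averaged, and also without any single array of either stage other than adult replicate 1. Of 32 transcription factors of the lineage, 10 rose and 10 fell (6 fell without adult replicate 3). Id1 and Id3, which block the muscle factors from binding DNA, rose by 1.62 ± 0.14 and 2.34 ± 0.11, while Msc and Eya2 fell by 1.14 ± 0.16 and 1.29 ± 0.10. Nfix, which switches muscle genes from an embryonic to a fetal programme, rose by 0.61 ± 0.09.

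Of 26 surface and identity genes 19 rose and 3 fell (5 fell without adult replicate 1), with a median of 0.72. Among all genes 19.1% rose and 23.4% fell. In this list 11 rises and 2 falls were at least 2-fold, and the members named here are all ones that rose. Cd200, an immune checkpoint ligand, read 6.51, 5.88 and 5.74 against 10.15, 10.28 and 10.32 and rose by 4.21 ± 0.17 (adjusted p = 1.57e-09). Chrdl2, a BMP antagonist, rose by 3.18 ± 0.19, from 7.46, 7.55 and 7.52 to 10.16, 10.96 and 10.95. The heparan sulphate proteoglycan Sdc4 rose by 2.87 ± 0.13 and the calcitonin receptor Calcr by 1.93 ± 0.09. All 3 adult arrays lay above all fetal arrays for these 4 genes. Egfr and Fgfr1, growth factor receptors, rose by 1.24 ± 0.10 and 1.22 ± 0.10, and Des (desmin) by 1.29 ± 0.09.

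Genes linked to quiescence had the highest median of the lists, 1.17: 26 of 31 rose and 3 fell. Klf9, a glucocorticoid and thyroid hormone target, read 7.11, 6.59 and 6.89 in fetal and 10.57, 10.52 and 10.46 in adult cells (3.66 ± 0.13, adjusted p = 6.29e-10). Cebpd read 5.85, 5.91 and 5.65 against 9.28, 9.39 and 9.36 and rose by 3.54 ± 0.14. Spry1, a brake on growth factor signalling required for return to rest, rose by 1.26 ± 0.09, Foxo1 by 1.55 ± 0.10, the antiproliferative Btg2 by 2.08 ± 0.14 and Rgs5 by 2.28 ± 0.22. The list's median was 1.17 on adult replicate 1 alone, so it did not share the smaller shift of the division genes there. The 3 members that fell were Cdkn1c, Foxo4 (-0.70 ± 0.14) and Rb1 (-0.93 ± 0.21). Lists share members, so their counts are not separate. Btg2 is also counted among the immediate early genes, Rgs5 and Notch3 among the pericyte markers, and Tek among the endothelial markers.

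Notch signalling, which holds satellite cells at rest, was mixed in its parts. Of 29 Notch genes 12 rose and 7 fell. The effector genes Hes1, Hey1 and Heyl rose by 1.57 ± 0.10, 0.87 ± 0.10 and 1.76 ± 0.15, and the receptor Notch3 by 0.86 ± 0.11. Heyl read 8.87, 9.20 and 9.09 in fetal and 10.44, 10.99 and 11.00 in adult cells. Lfng, a glycosyltransferase that tunes the response of Notch to its ligands, read 9.59, 9.79 and 9.83 against 6.54, 6.39 and 6.42 and fell by 3.28 ± 0.14 (adjusted p = 2.64e-09). Nrarp, a target that feeds back on Notch, was at least 1.72-fold lower, and the transcription factor Rbpj, through which Notch acts, fell by 0.71 ± 0.10.

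Of 30 myoblast commitment and fusion genes 21 fell and 7 rose (median -1.29, and -0.78 on adult replicate 1 alone). Myh3, the embryonic myosin heavy chain, read 9.36, 8.25 and 8.42 in fetal and 4.82, 4.83 and 4.70 in adult cells and was at least 6.98-fold lower. Myl4, an embryonic myosin light chain, fell by 3.09 ± 0.23, and Chrng, the fetal subunit of the acetylcholine receptor, read 7.97, 7.93 and 8.03 against 6.04, 5.85 and 5.92 and fell by 2.04 ± 0.12. On adult replicates 2 and 3 Chrng lay under the receptor 95th percentiles of those arrays (6.12 and 6.13). Mylk2, a myosin light chain kinase of skeletal muscle, rose by 2.20 ± 0.14, and Ankrd1 by 1.70 ± 0.14. Of 30 genes of the mature fibre 9 rose (14 without fetal replicate 1) and 8 fell, and the list's median was -0.03. The giant sarcomere proteins Ttn and Neb fell by 2.61 ± 0.19 and 2.66 ± 0.26, and the calcium release channel Ryr1 fell by 2.30 ± 0.18. The fast-fibre genes Actn3 and Myh4 rose by 2.21 ± 0.14 and 1.29 ± 0.18, and Myh1 was at least 1.76-fold higher. The bound for Myh1, as for every rise, sets the adult mean against the fetal limit of 5.39. It does not allow for the raised background of adult replicates 2 and 3. Fetal replicate 1 had the highest fetal value for Ttn (9.76, 9.13 and 9.13), Neb (10.36, 9.82 and 9.84) and Actn3 (7.98, 7.55 and 7.57). Without that array the list's median was 0.46. The part of fibre fragments in these values was not tested.

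Ligands of the TGF-beta superfamily moved in both directions. Mstn (myostatin), which limits muscle mass, read 9.90, 9.97 and 9.98 in fetal cells and 4.52, 4.53 and 4.71 in adult cells. It was at least 16.8-fold lower (measured difference -5.36 ± 0.09, adjusted p = 2.00e-12), and its adult values were at receptor background on all 3 arrays. Inhbb, an activin subunit, rose by 1.71 ± 0.16, Tgfb3 by 1.09 ± 0.11 and the coreceptor Tgfbr3 by 2.10 ± 0.13, with 9.12, 8.90 and 8.98 against 10.99, 11.17 and 11.16. Over 28 such genes 12 rose and 9 fell, and over 26 BMP genes 11 rose (7 with arrays centred) and 8 fell (5 without adult replicate 3 or fetal replicate 3). Among BMP ligands Bmp6 rose by 1.96 ± 0.14 (9.07, 8.81 and 8.84 against 10.86, 10.86 and 10.89) and Bmp7 fell by 2.27 ± 0.11 (8.50, 8.44 and 8.48 against 6.01, 6.18 and 6.43). The receptor Bmpr1b was at least 2.43-fold lower.

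Wnt genes fell more often than they rose, with 17 falls and 4 rises of 44 (7 rises without adult replicate 1). Sfrp2, a secreted Wnt modulator, read 9.50, 9.53 and 9.55 in fetal and 6.99, 6.17 and 6.00 in adult cells and fell by 3.14 ± 0.20. The receptors Fzd2 and Fzd3 fell by 2.10 ± 0.12 and 1.52 ± 0.12, and the R-spondin receptor Lgr5 was at least 1.88-fold lower. Ror1, a receptor for noncanonical Wnt ligands, rose by 1.40 ± 0.10. Of 32 growth factor receptors and their brakes 11 rose and 7 fell (11 fell without adult replicate 1, 4 without adult replicate 2). Ret, a receptor tyrosine kinase, read 6.53, 6.30 and 6.23 against 9.15, 8.89 and 8.95 and rose by 2.65 ± 0.13 (adjusted p = 1.39e-08), and Erbb3 fell by 1.44 ± 0.09. Etv1, a transcription factor downstream of such receptors, fell by 2.87 ± 0.12. Of 37 genes of the JAK-STAT pathway 13 rose and 4 fell (2 fell without adult replicate 3). Its cytokine Clcf1 and its repressor Bcl6 rose by 3.36 ± 0.13 and 3.10 ± 0.10, the receptor Osmr by 1.79 ± 0.21, and the transducer Stat5a by 0.99 ± 0.10. Stat3 read 9.29, 9.18 and 9.15 in fetal and 9.11, 9.34 and 9.30 in adult cells and did not pass (0.04 ± 0.10). Of 40 axon guidance genes 10 rose and 18 fell. Plxnd1, a semaphorin receptor, rose by 2.72 ± 0.19, while the semaphorin Sema3c was at least 5.82-fold lower. Sema5a, another semaphorin, fell by 3.10 ± 0.12, and the cue Slit2 and the receptor Epha3 were at least 4.08-fold and at least 3.2-fold lower.

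Of 26 hormone genes 16 rose and 4 fell. Esr1, an oestrogen receptor, read 5.48, 5.65 and 5.38 in fetal and 9.92, 9.85 and 9.88 in adult cells and rose by 4.38 ± 0.11 (adjusted p = 5.90e-11). Its target Greb1 read 5.06, 5.26 and 5.26 against 7.27, 8.08 and 8.10, at least 5.37-fold higher, with adult replicate 1 the lowest adult array. Hsd11b1, which makes active glucocorticoid inside cells, was at least 14.6-fold higher, with 4.72, 5.10 and 4.87 against 9.96, 8.90 and 8.93. Akr1c14, a hydroxysteroid dehydrogenase, was at least 10.2-fold higher. The thyrotropin receptor Tshr rose by 3.60 ± 0.17, from 6.11, 6.10 and 6.03 to 9.48, 9.80 and 9.75. Agtr2, the angiotensin receptor of fetal tissue, moved the other way, from 11.26, 11.09 and 11.00 to 7.13, 6.72 and 6.74, a fall of 4.25 ± 0.13 (adjusted p = 1.60e-10).

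Circadian clock genes rose in 14 of 17 cases and fell in 1, with a median of 1.03. Nr1d1, the repressor of Arntl, read 6.52, 6.39 and 6.27 in fetal and 11.13, 10.79 and 10.87 in adult cells and rose by 4.54 ± 0.12 (adjusted p = 7.09e-11). Nr1d2, Rora and the output factor Dbp rose by 1.89 ± 0.19, 1.24 ± 0.11 and 1.96 ± 0.25, and Bhlhe41 was at least 5.38-fold higher. Cry1, a repressor of the clock, was the member that fell (-0.59 ± 0.12). Adult replicate 1 was above replicates 2 and 3 for Nr1d1, Nr1d2, Dbp and Bhlhe41. For Arntl it was below them, at 7.32 against 8.06 and 8.18. The hour of dissection is not given, so its part in these differences was not tested. The E-box CACGTG was present in 6 of 20 promoters of the clock genes (30.0%) and in 8.24% of all promoters.

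**Figure D3:**
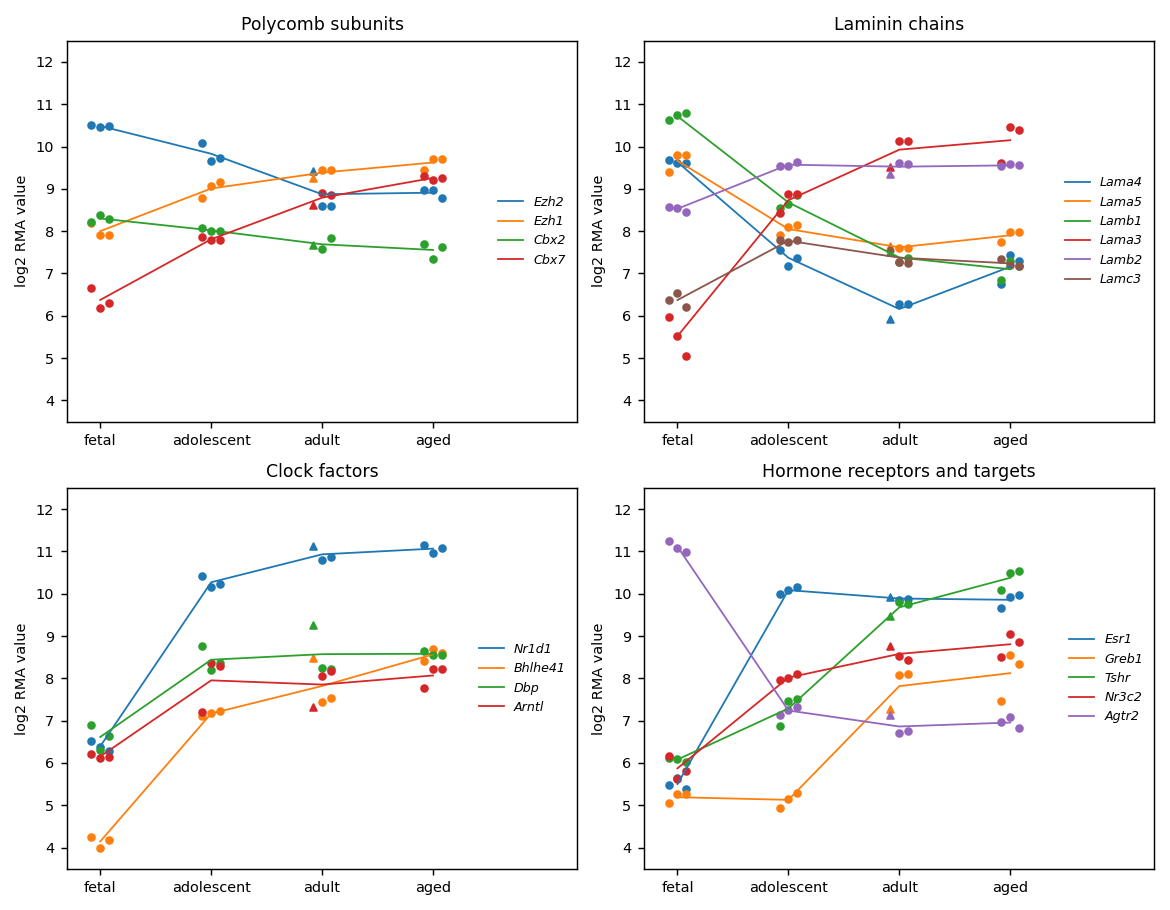
Log2 RMA values (vertical axis) of Polycomb, laminin, clock and hormone genes on the 3 arrays of each stage (points, with adult replicate 1 as a triangle) and stage means (lines), each line to be read within its own gene. Esr1 and Nr1d1 stood at adolescent means of 10.09 and 10.27, near the adult means of 9.89 and 10.93, while Greb1 stood at 5.13 in adolescent and 7.82 in adult cells.

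The adolescent cells can be set against the same fetal arrays. Esr1 differed from fetal by 4.58 in adolescent and 4.38 in adult cells, and Mstn by -4.60 and -5.36. Greb1 was at receptor background in fetal and adolescent cells and at least 5.37-fold higher in adult than in fetal cells, and Tshr differed by 1.21 and 3.60. Mki67 differed by -0.40 and -3.51, Cdkn1c by -1.31 and -3.04, and Clcf1 by 2.11 and 3.36. These pairs share their fetal arrays and are given side by side only. Tested directly, adult minus adolescent was 2.69 ± 0.26 as measured for Greb1 (adjusted p = 8.59e-05; its adolescent level is only a bound), 2.39 ± 0.17 for Tshr (adjusted p = 9.88e-06) and -0.20 ± 0.11 for Esr1 (adjusted p = 0.191).

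Matrix genes moved in both directions, chain by chain. Of 10 laminin chains 3 rose and 3 fell. Lama3 read 5.98, 5.52 and 5.06 in fetal and 9.51, 10.14 and 10.13 in adult cells (4.41 ± 0.27, adjusted p = 8.36e-08), and Lamb2 and Lamc3 rose by 0.99 and 1.00. Lama4 read 9.67, 9.62 and 9.61 against 5.92, 6.27 and 6.29 and fell by 3.47 ± 0.17, and Lamb1 read 10.62, 10.74 and 10.80 against 7.51, 7.27 and 7.36 and fell by 3.34 ± 0.13. Lama5 fell by 2.05 ± 0.13. Lama2, the main alpha chain of adult muscle, did not pass (-0.04). Over all 40 laminin, proteoglycan and other matrix genes 12 rose and 20 fell, 15 of them by at least 2-fold. Prelp, a small leucine-rich proteoglycan, rose by 4.00 ± 0.14, from 7.73, 7.34 and 7.36 to 11.23, 11.62 and 11.60. Fn1 (fibronectin), which fetal satellite cells deposit around themselves, read 11.28, 11.18 and 11.21 in fetal and 8.97, 9.56 and 9.57 in adult cells and fell by 1.86 ± 0.18.

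Collagen genes that passed mostly fell, 11 of 33 against 3 rises (8 rises without adult replicate 1, 1 without fetal replicate 2). Col1a2 read 10.46, 10.24 and 10.26 in fetal and 7.54, 7.93 and 7.90 in adult cells and fell by 2.53 ± 0.13. Its partner Col1a1 fell by 1.65 ± 0.17, Col6a3 by 2.11 ± 0.16, and Col18a1 and Col4a2, of the basement membrane, by 1.72 ± 0.13 and 1.19 ± 0.11. Of 31 integrins, syndecans and glypicans 7 rose and 15 fell. The laminin receptor subunit Itga6 fell by 2.15 ± 0.13, with 9.48, 9.11 and 9.24 against 7.20, 7.16 and 7.04, and the tetraspanin Cd9 rose by 1.44 ± 0.15. Of 31 matrix proteases and inhibitors 8 rose and 13 fell. Among them the inhibitor Timp4 rose by 2.42 ± 0.21, and the membrane protease Adam19 fell by 2.23 ± 0.13.

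Chromatin regulators mostly fell, with 6 rises and 19 falls of 37, but alternative subunits of the same complexes moved apart. Ezh2, the methyltransferase of Polycomb complex PRC2 in dividing cells, fell by 1.61 ± 0.19, from 10.51, 10.46 and 10.48 to 9.42, 8.59 and 8.60. Its alternative Ezh1, known from resting cells, rose by 1.38 ± 0.13, from 8.19, 7.90 and 7.91 to 9.26, 9.43 and 9.45. Cbx7, a chromodomain subunit of PRC1, rose by 2.42 ± 0.12 (adjusted p = 1.85e-08), while Cbx2, another, fell by 0.61 ± 0.11. The values of Cbx7 were 6.65, 6.17 and 6.30 in fetal and 8.61, 8.90 and 8.86 in adult cells. The DNA methyltransferases Dnmt1 and Dnmt3a fell by 1.96 ± 0.15 and 1.41 ± 0.13, and the maintenance factor Uhrf1 by 3.17 ± 0.38. Hells, a remodeller that works with them, was at least 6.43-fold lower. Cbx5 (HP1 alpha) and the chromosomal protein Hmgb2 fell by 1.48 ± 0.13 and 2.70 ± 0.17.

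Hox genes mark position along the body axis and the limb. Of 41 Hox and limb position genes 8 rose (13 without adult replicate 1) and 9 fell. Divided by cluster after the values were seen, 7 of 9 Hoxc genes rose and 0 fell, while 0 of 10 Hoxa, 0 of 7 Hoxb and 0 of 9 Hoxd genes rose. Without adult replicate 1, 7 Hoxc, 4 Hoxb, 1 Hoxa and 0 Hoxd genes rose, and the difference between clusters was not tested. Hoxc6 read 7.09, 6.97 and 7.28 in fetal and 8.67, 8.63 and 8.57 in adult cells (1.51 ± 0.16, adjusted p = 1.09e-05). Hoxc8 read 6.58, 6.93 and 6.94 against 8.66, 8.18 and 8.10, and Hoxc9 rose by 1.37 ± 0.16. Hoxa13, which patterns the far end of the limb, read 6.43, 6.29 and 6.39 against 5.60, 5.54 and 5.27 and was at least 1.41-fold lower. Meis1, a Hox partner of the part of each limb nearest the body, fell by 1.44 ± 0.17. Tbx5, the factor of the forelimb, read 6.40, 5.38 and 5.59 on the fetal arrays, with fetal replicate 1 highest, and 4.63, 4.84 and 4.79 on the adult arrays, where it was at receptor background. Its fetal mean lay below the adult background limit of 5.88, so no size is given for its change. Tbx4, the factor of the hindlimb, read 7.99, 7.89 and 7.88 against 8.85, 8.57 and 8.60 and rose by 0.75 ± 0.10, and Pitx1, also of the hindlimb, did not pass (-0.13 ± 0.11). The fetal pool held forelimb cells and the adult pool did not, so limb and stage cannot be told apart for these genes.

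**Figure D4:**
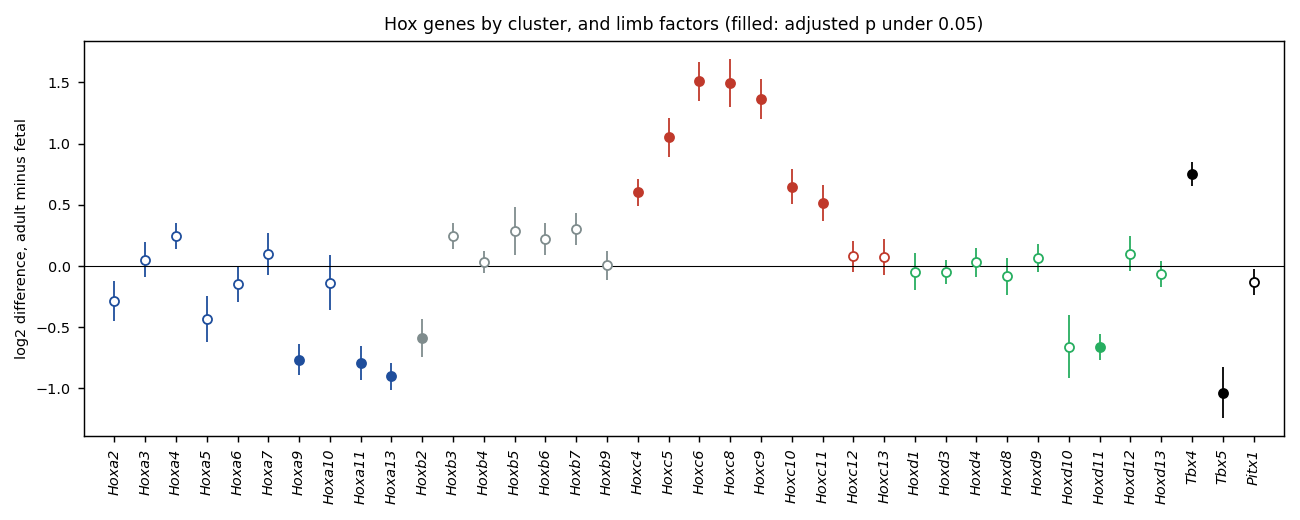
Adult minus fetal difference (log2, vertical axis) of the measured Hox genes, in cluster and number order, and of 3 limb factors. Points are fitted differences and bars their SE (n = 3 arrays per stage). Filled points passed at an adjusted p under 0.05. Hoxc4 to Hoxc11 lie above 0, highest at Hoxc6 (1.51), and Hoxa9, Hoxa11 and Hoxa13 below it. The point of Tbx5 rests on adult values at receptor background.

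Metabolic genes fell more often than they rose in glycolysis and the respiratory chain, but fatty acid genes moved in both directions. Of 21 glycolysis genes 10 fell and 3 rose. Tpi1 read 10.38, 10.38 and 10.41 in fetal and 8.78, 8.72 and 8.69 in adult cells and fell by 1.66 ± 0.11, and Hk2, which traps glucose in the cell, fell by 1.32 ± 0.15. The phosphofructokinase subunits moved apart: Pfkl fell by 1.94 ± 0.10 and Pfkm fell by 0.73 ± 0.10, while Pfkp rose by 1.41 ± 0.12. Of 39 respiratory chain genes 26 fell (16 without adult replicate 2 or adult replicate 3) and 1 rose, with a median of -0.53. That median was -0.05 on adult replicate 1 alone, so the fall lay on adult replicates 2 and 3. The mean of the list was 9.59, 9.54 and 9.59 on the fetal and 9.56, 8.78 and 8.78 on the adult arrays. Atp5a1, of the ATP synthase, and Ndufb3, of complex I, were low on all adult arrays, falling by 0.73 ± 0.09 and 1.04 ± 0.13. Of 30 fatty acid genes 10 rose and 9 fell (5 fell without adult replicate 2 or adult replicate 3). Lpl and Cpt1a, which release fatty acids from lipoprotein and pass them into mitochondria, rose by 1.63 ± 0.11 and 1.44 ± 0.12, while the fatty acid carrier Fabp5 fell by 3.69 ± 0.24, from 10.29, 10.87 and 10.91 to 7.49, 6.85 and 6.65. Of 30 genes of ribosome biogenesis and translation 14 fell and 0 rose (9 fell without adult replicate 2, adult replicate 3, fetal replicate 2 or fetal replicate 3). Their median was -0.08 on adult replicate 1 alone and -0.36 without it. Of 9 housekeeping genes 5 fell and 0 rose (median -0.39), and 3 fell without adult replicate 3. Their median was -0.11 on adult replicate 1 alone and -0.53 without it, so this fall too lay mostly on adult replicates 2 and 3. Actb did not pass (-0.02 ± 0.08). The standard deviation over all probe sets was 2.00 on each of adult replicates 2 and 3. It was 2.16 on adult replicate 1 and 2.16 to 2.18 on the fetal arrays, and its part in these falls was not tested.

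Antioxidant genes divided, with 12 rises and 11 falls of 35 (18 falls without adult replicate 1). Besides Gpx3, the metallothioneins Mt1 and Mt2, which bind zinc, rose by 2.94 ± 0.22 and 2.03 ± 0.16, extracellular superoxide dismutase Sod3 by 2.54 ± 0.13, and the glutathione transferase Gstm1 by 2.51 ± 0.09. Gstm1 read 8.34, 8.47 and 8.41 in fetal and 10.93, 10.87 and 10.93 in adult cells. Of 24 potassium and calcium channel genes 9 rose and 2 fell, among them Kcnma1 (2.15 ± 0.15) and Cacna1d (1.81 ± 0.12). A second probe set of Kcnma1, at receptor background, differed by 0.11. Of 23 amino acid transporters 9 rose and 7 fell. Slc7a8 read 7.03, 6.68 and 6.94 against 10.47, 10.64 and 10.64 and rose by 3.70 ± 0.15.

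Immediate early genes, which are also induced while tissue is digested, rose in 22 of 32 cases and fell in 4. Junb read 7.39, 8.03 and 8.17 in fetal and 10.07, 9.98 and 9.97 in adult cells and rose by 2.14 ± 0.16, and Dusp1, a phosphatase that ends MAP kinase signals, by 2.00 ± 0.11. Jun rose by 1.02 ± 0.10. Fetal replicate 1 was the lowest fetal array for Jun, Junb, Dusp1 and Egr1. Egr1 rose by 0.50 ± 0.09, a call lost when replicates 2 and 3 were averaged. Digestion was of the same kind at both stages per the labels, and its part in these rises was not tested.

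Interferon response genes rose in 19 of 30 cases and fell in 2, with a median of 0.73. Ifih1, a sensor of viral RNA, read 5.77, 5.70 and 5.69 in fetal and 7.92, 7.39 and 7.34 in adult cells and rose by 1.83 ± 0.16 (adjusted p = 1.51e-06). Dtx3l, Ddx58 and Ifi35 rose by 1.49 ± 0.16, 1.39 ± 0.19 and 1.31 ± 0.19, and Parp14 was at least 3.65-fold higher. Adult replicate 1 was the highest adult array for each of these 5 genes. Of 13 antigen presentation genes 11 rose and 0 fell. Tap2 and Tapbp, which load peptides onto MHC class I, rose by 1.33 ± 0.11 and 1.41 ± 0.11, H2-Q4 was at least 4.3-fold higher, and Erap1, which trims the peptides, rose by 1.83 ± 0.23. B2m, the light chain of MHC class I, read 10.35, 9.39 and 9.46 in fetal and 11.55, 10.62 and 10.59 in adult cells (1.19 ± 0.28), and lost its call when replicates 2 and 3 were averaged.

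**Figure D5:**
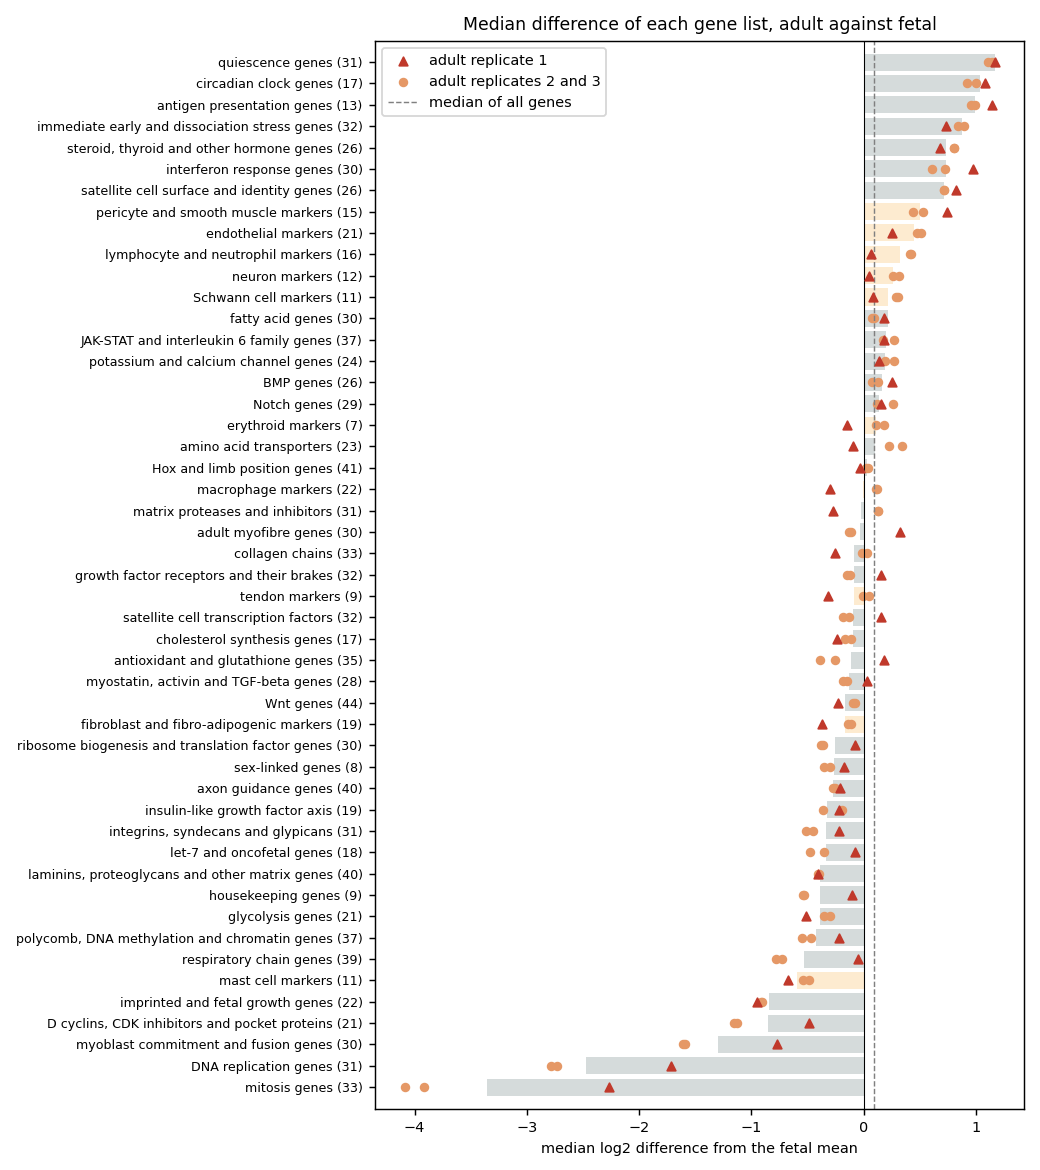
Median log2 difference from the fetal mean for each gene list (bars: mean of the 3 adult arrays; number of measured genes in brackets; pale orange bars are markers of other cell types), with the median on adult replicate 1 (triangles) and on adult replicates 2 and 3 (circles). The dashed line is the median of all genes, 0.09. The bars run from -3.36 for mitosis genes to 1.17 for quiescence genes.

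Markers of other cell types that a muscle digest can hold were followed on every array. Endothelial markers had list means of 7.15, 6.53 and 6.47 on the fetal and 7.20, 7.26 and 7.27 on the adult arrays, and 7 of 21 rose (12 without fetal replicate 1, 4 without fetal replicate 2 or fetal replicate 3) while 0 fell. Cdh5, the cadherin of endothelial junctions, read 9.38, 8.31 and 8.28 against 9.68, 9.34 and 9.36 (0.81 ± 0.26, a call lost when replicates 2 and 3 were averaged and without adult replicate 3, fetal replicate 2 or fetal replicate 3), and Flt1, a VEGF receptor, rose by 1.48 ± 0.26. Fetal replicate 1 thus stood near the adult level of the endothelial genes. Of 15 pericyte and smooth muscle markers 8 rose and 4 fell. Abcc9 rose by 1.42 ± 0.18, while Cspg4 and Mcam fell by 1.83 ± 0.12 and 1.37 ± 0.16. Of 19 fibroblast markers 7 rose and 9 fell, with means of 8.12, 7.40 and 7.41 on the fetal and 7.42, 7.37 and 7.39 on the adult arrays. Dpt and Gsn rose by 1.75 ± 0.14 and 1.93 ± 0.14, and Fap fell by 2.35 ± 0.21. Of 9 tendon markers 2 rose (4 without adult replicate 1) and 3 fell, among them Tnmd, which was at least 3.58-fold lower. Fetal replicate 1 read highest for Tnmd, at 8.43, 7.26 and 7.45. The part of these cells in the collagen and matrix results was not tested.

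Mast cell markers fell in 7 of 11 cases and rose in 0. Cpa3, the carboxypeptidase of mast cells, read 9.79, 10.04 and 9.98 in fetal cells and 4.35, 4.89 and 4.75 in adult cells and was at least 16.7-fold lower, whereas Fcer1a, the receptor for IgE, was at receptor background in both (3.13, 3.21 and 2.96 and 2.85, 3.21 and 3.21). Of 22 macrophage markers 4 rose (18.2%) and 3 fell (13.6%), against 19.1% and 23.4% of all genes. Leaving out adult replicate 1 gave 7 rises, in a setting where 35.1% of all genes rose. Lyz2, a lysozyme, and Gpnmb rose along with Retnla, Lyz2 from 6.66, 6.76 and 6.87 to 8.38, 9.32 and 9.39 and Gpnmb at least 9.54-fold. Over all macrophage markers the means were 6.09, 6.03 and 6.03 on the fetal and 6.07, 6.50 and 6.54 on the adult arrays. Mrc1, a mannose receptor of macrophages, moved the other way and was at least 2.04-fold lower. Of 16 lymphocyte and neutrophil markers 6 rose (1 to 11 with 1 array left out, 11 without adult replicate 1, and 2 with arrays centred) and 0 fell, with means of 4.89, 4.98 and 4.82 on the fetal and 4.93, 5.30 and 5.35 on the adult arrays. None of these rises reached 2-fold (0 of 16), and adult replicates 2 and 3 carried the raised receptor background. Of 11 Schwann cell markers 5 rose (3 without fetal replicate 1 or fetal replicate 3, and 3 with arrays centred) and 2 fell, Mbp (myelin basic protein) by 0.75 ± 0.09, while S100b did not pass (0.07 ± 0.11). Of 7 erythroid markers 0 rose and 1 fell. Of 12 neuron markers 2 rose (5 without adult replicate 1, 1 without adult replicate 2 and 1 with arrays centred) and 2 fell. Gal (galanin), a neuropeptide, read 5.30, 5.21 and 5.07 in fetal and 10.10, 8.69 and 8.70 in adult cells, at least 13.6-fold higher, while Tubb3, Snap25 and Elavl4 did not pass. The part of Schwann, mast and blood cells in the results above was not tested.

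By stage means, genes of both sex chromosomes were read above receptor background in both stages. Xist, the RNA of the inactive X chromosome, read 11.42, 11.41 and 11.41 in fetal and 11.75, 11.71 and 11.67 in adult cells and did not pass (0.29 ± 0.19). The Y-linked genes Kdm5d, Uty and Eif2s3y fell by 1.07 ± 0.28, 0.97 ± 0.31 and 0.97 ± 0.32. Kdm5d read 7.48, 7.30 and 7.45 against 6.94, 6.01 and 6.07, with adult replicate 1 above replicates 2 and 3. On adult replicates 2 and 3 Kdm5d lay under the receptor 95th percentiles of those arrays (6.12 and 6.13). These 3 calls were lost when replicates 2 and 3 were averaged. The calls of Uty and Eif2s3y were also lost without adult replicate 2 or 3, or fetal replicate 1 or 3. The sex of the pooled animals is not given in the labels, and its part in the other results was not tested.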

How the data were processed

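Total RNA of sorted cells was labelled with biotin and hybridised to single-colour Affymetrix arrays, 1 array per sample. Per the submitters' processing notes, Affymetrix Expression Console 1.2.1.20 and the RMA method gave the probe set values, which the authors deposited as log2 values. These were used without further normalization, and scanner files were not used here. The genome build is not given in the sources used here.

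Of 35556 probe sets, 21789 carried 1 gene symbol, 1621 several, and 12146 were not named here. Each of 19938 genes was read from its probe set with the highest mean over 12 arrays (999 genes had several). All 12 arrays entered 1 model with a mean per stage, 8 residual degrees of freedom and moderated variances (limma 3.58.1, R 4.3.3), and p-values were adjusted by Benjamini-Hochberg over all genes. The number of arrays limits the precision. On simulated data 27 of 67 genes changed 1.5-fold, 56 of 67 changed 2-fold and 66 of 66 changed 4-fold were recovered, with 12 false calls among 19938 genes. These counts hold for the simulated data alone. On the measured arrays 357 of 1192 receptor genes, assumed to be mostly silent, were called higher in adult cells. The simulation cannot give the error level of the calls above, because the measured arrays also differed by a shared background.

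Gene lists (49, of which 10 mark other cell types; 1176 of 1248 names measured) and the members described were chosen with earlier results of these data known. Named genes were drawn by a rule that took the 15 genes that rose most and the 15 that fell most, the members with the lowest p in each list (at most 6), the members of lists of at most 16, and fixed genes. Not all of the 364 genes it took are printed, and the others enter through the counts of their lists. Meg3, Peg3, Foxo4, Rb1, Rbpj, Cry1, Arntl, Nr3c2, Lamb2, Lamc3, Lama5, Lama2, Ezh2, Cbx2, Uhrf1, Hells and the Hox genes other than Hoxa13, Hoxc6, Hoxc8 and Hoxc9 were named after their values were seen. For pairing, deviations from the stage means correlated at 0.05, 0.27 and -0.22 between adult and fetal arrays of equal number, so the numbers were not taken to pair samples. The alternatives tried are those of the closing section.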

Additional observations from a re-analysis of the deposited data

How the results depend on the processing

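The 2-fold counts kept within 1.5 times of 2067 under every alternative run (1769 to 2724). The other counts moved more. Passing genes numbered 15437 with array weights (8559 rises; the estimate of the weights stopped short of its tolerance), 1853 in a test against a 1.5-fold change (639 rises and 1214 falls), 4660 with adult replicate 1 as the only adult array (2095 rises and 2565 falls, its spread assumed to be that of the other stages) and 3532 with replicates 2 and 3 averaged (1297 rises and 2235 falls). Rises numbered 2419 with only the 3 adult and 3 fetal arrays. Leaving out 1 array at a time gave 5923 to 12968 passing genes, 2272 to 7000 rises and 3651 to 5968 falls, the highest each time without adult replicate 1. Genes without overlap numbered 9954 to 16289 then, and 9554 with all arrays, a count that leaving out an array can only keep or raise. The cause of the highest counts without adult replicate 1 was not tested. With the replicate block, although the numbers showed no pairing, 3205 rises and 4478 falls passed. Of 310 named calls, 308 remained in direction with the block, 308 without adult replicate 1, 301 with arrays centred, 298 with repeated quantile normalization and 260 with replicates 2 and 3 averaged. The call of Myog alone turned its direction, to 0.14 on adult replicate 1.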

Other observations

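Of 17 cholesterol synthesis genes 1 rose and 5 fell, and 0 changed 2-fold. Without adult replicate 1, 3 rose and 3 fell, and 2 fell without fetal replicate 2 or fetal replicate 3. Stard4, which carries cholesterol between membranes, differed by -0.77 ± 0.18 and the reductase Dhcr7 by -0.62 ± 0.11, and the desaturase Sc5d was the member that rose with all arrays (0.32 ± 0.10). The calls of Stard4 and Sc5d were lost when replicates 2 and 3 were averaged. That of Sc5d was also lost without adult replicate 2 or 3, or fetal replicate 2. The mechanically gated channel Piezo1 read 9.09, 9.33 and 9.35 in fetal and 10.01, 10.33 and 10.39 in adult cells, a rise of 0.98 ± 0.13, and the potassium channel gene Kcnt2 was at least 4.27-fold higher. Among amino acid transporters Slc43a2, Slc6a9 and Slc38a3 rose by 2.33 ± 0.15, 2.03 ± 0.12 and 1.38 ± 0.14. Prdm16, a factor of brown fat, read 6.97, 6.97 and 7.07 against 6.46, 6.60 and 6.68 and differed by -0.42 ± 0.10, and Zfp296 by 0.41 ± 0.11, both calls lost when replicates 2 and 3 were averaged.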
